A study of Mus musculus with 10 samples.

Results

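Mouse embryonic stem cells kept for more than 13 passages in 2i with leukaemia inhibitory factor (LIF), called long 2i here, were compared with cells sampled after 5 to 6 passages in that medium, called first 2i. Libraries were chosen by the culture medium in their labels, which gave 4 of the 10 libraries of the series, 2 in each group. In both groups the cells came from the inner cell mass of the mouse blastocyst, carried a reporter of Wnt/β-catenin signalling and grew on gelatin with LIF, with a GSK3 inhibitor at 3 µM and with PD, an inhibitor of the ERK pathway, at 1 µM, and were split about every 48 h. The groups therefore differ in the number of passages and in nothing else that the labels state. The sources used here give neither the name and sex of the line nor the number of clones, and do not say whether the long cultures were continued from the first ones. From the title of the series, the question is whether the ground state of pluripotency lasts when GSK3 stays inhibited.

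The 2i medium holds embryonic stem cells in a state close to the epiblast of the early blastocyst. Inhibition of GSK3 stabilises β-catenin, which relieves repression of pluripotency genes by Tcf7l1, and inhibition of the ERK pathway blocks the signal from FGF4 through which the cells otherwise leave that state. In this medium DNA methylation is known to fall, because de novo methyltransferases are repressed and maintenance is impaired, and long culture in it has been linked to lost imprints and altered chromosomes.

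Total RNA was counted per gene. Gene counts totalled 21261219 and 20397075 in the first 2i libraries and 16809070 and 18780882 in the long 2i libraries, and 14220 of 24015 genes passed the filter on low counts and were tested. Levels are CPM values, counts scaled by the total count of the tested genes in each library and a TMM factor. Pairs of values give replicate 1 and then replicate 2, and where values are set against each other without a group name, first 2i comes before long 2i. Such levels compare libraries for 1 gene, not genes with each other, since they are not divided by gene length. Replicates were close: the log2 difference between libraries had an SD over genes of 0.331 within first 2i, 0.355 within long 2i and 0.892 to 0.917 between libraries of different groups. No label states that replicates came from separate cultures, and the p-values reflect only how far these libraries spread, which may be technical noise. In bulk RNA, fewer cells that express a gene and less of its RNA per cell cannot be told apart.

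With the edgeR quasi-likelihood test and Benjamini-Hochberg adjustment, 8699 of the genes tested changed between first and long 2i (61.2%), 4324 higher (30.4%) and 4375 lower (30.8%) in long 2i. A gene is said to have risen, fallen or changed where its adjusted p was under 0.05. Most changes were small. At least 2-fold changes numbered 934 upward and 1466 downward (16.9% of genes tested), at least 8-fold changes 118 and 188, and at least 32-fold changes 18 and 31. Of the 51 genes with a mean of over 1000 CPM in either group, 11 rose and 28 fell, and 1 of these changed by at least 2-fold. Both long libraries lay on 1 side of both first libraries for 79% of genes. With so many genes called, the size of a change and the level in each library say more than the call.

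Genes of 3 chromosomes moved together in long 2i. Chromosomes were taken from the mouse RefSeq gene table of build GRCm38.p6 by symbol, which placed 14170 of the 14220 genes, and gene order along them from the same table. On chromosome 1, 515 of 784 tested genes fell and 72 rose. The share that fell was 65.7%, against 29.6% on the chromosomes other than 1, 6 and 16. The median log2 fold change on chromosome 1 was -0.49, a ratio of 0.71, beside -0.00098 over all genes tested. Chromosomes 6 and 16 lay on the other side. On chromosome 6, 325 of 667 genes rose (48.7%) and 131 fell, with a median of 0.22, a ratio of 1.16. On chromosome 16, 225 of 436 genes rose (51.6%) and 76 fell, with a median of 0.28, a ratio of 1.21. The remaining chromosomes held 12283 tested genes, of which 3687 rose and 3640 fell, with a median of 0.0051. They were not all balanced. The medians of the other autosomes ran from -0.082 on chromosome 13, where 22.5% rose and 36.1% fell, to 0.11 on chromosome 18, where 38.9% rose and 26.7% fell.

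**Figure D1:**
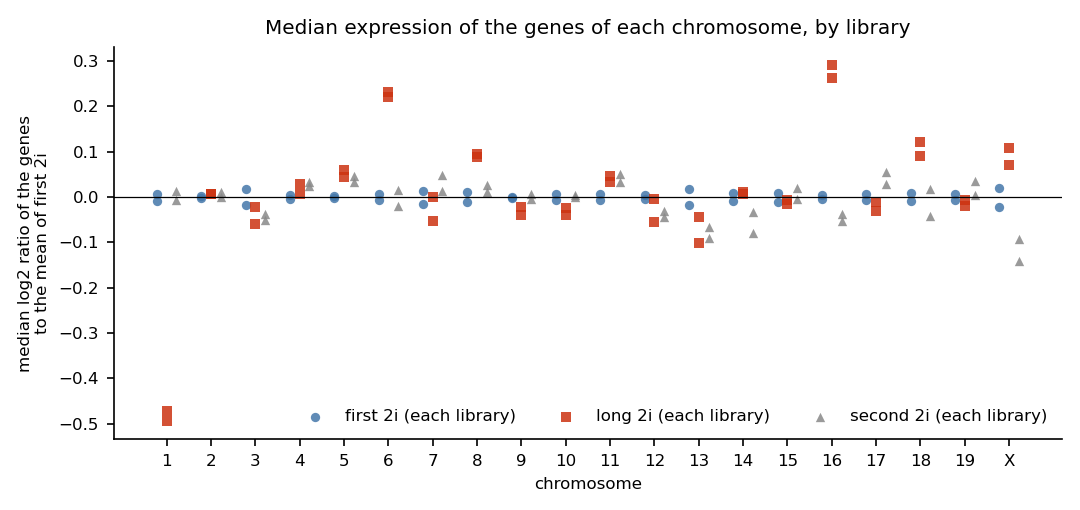
Median log2 ratio of the tested genes of each chromosome to the mean of first 2i, 1 point for each first 2i (circles), long 2i (squares) and second 2i (triangles) library. The long 2i squares lie near -0.5 for chromosome 1 and above 0.2 for chromosomes 6 and 16, while the circles and triangles of these chromosomes lie near 0.

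Each library showed the shift on its own. Relative to the mean of first 2i, the median log2 level of chromosome 1 genes was -0.473 and -0.495 in the long 2i libraries, whereas the first 2i libraries differed from that mean by 0.0077. For chromosome 6 the long libraries read 0.23 and 0.22 and for chromosome 16 they read 0.29 and 0.26. The second 2i libraries, from cells that had gone through 13 passages in 2i, 6 in serum and then 4 to 5 in 2i again, read 0.014 and -0.0065 for chromosome 1, 0.016 and -0.019 for chromosome 6 and -0.036 and -0.052 for chromosome 16. In the libraries returned to serum for 6 passages after more than 13 passages in 2i, the median of chromosome 1 genes relative to the original serum cultures was 0.068 and 0.035. The labels do not say whether these cultures were grown from the long cultures sampled here. DNA copy number was not measured.

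The shift ran along the whole of chromosomes 1 and 16 rather than lying in 1 stretch, and along most of chromosome 6. Cut into 19 consecutive windows of 40 tested genes, chromosome 1 had a median below 0 in all 19, from -0.36 in the window from Dennd1b to Stx6 to -0.74 in that from Dusp23 to Ephx1. On chromosome 16 all 10 windows lay above 0, from 0.17 to 0.38. On chromosome 6 it was 15 of 16, and the 16 windows ranged from -0.084 to 0.38. On the other chromosomes 147 windows lay below 0 and 154 above, with a range from -0.39 to 0.53. The highest window of all was on the X chromosome between Nrk and Phf8, at 0.53, while the X chromosome as a whole had a median of 0.098.

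**Figure D2:**
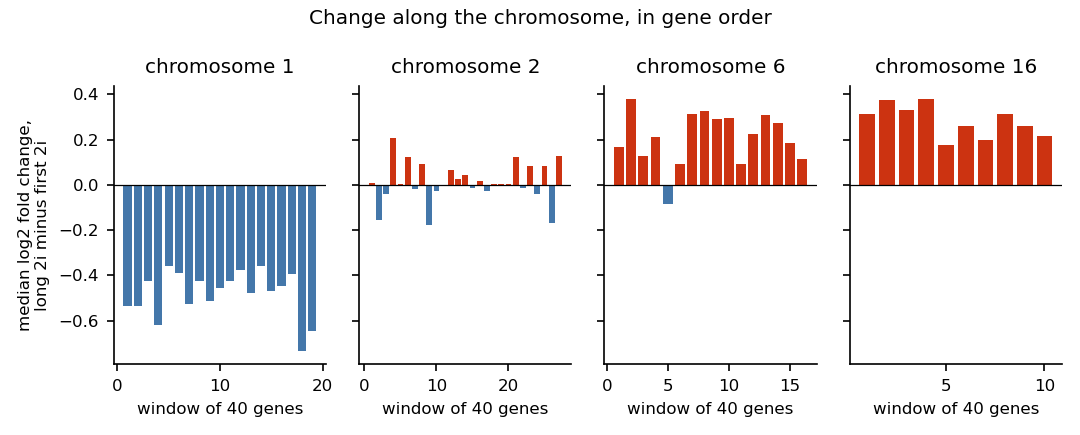
Median log2 fold change, long 2i minus first 2i, in consecutive windows of 40 tested genes in gene order along chromosomes 1, 6 and 16, with chromosome 2 for comparison, 1 bar per window. All 19 windows of chromosome 1 lie below 0 and all 10 of chromosome 16 above 0, 15 of 16 lie above 0 on chromosome 6, and those of chromosome 2 fall on both sides.

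With the genes of these 3 chromosomes left out before filtering, scaling and testing, an alternative added after the data were seen, 7322 of 12333 genes changed, 3616 higher and 3706 lower. Wherever a gene named below lies on chromosome 1, 6 or 16, its chromosome is given, and how far its change differs from that of its neighbours was not tested.

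The genes that fell furthest were led by the 2 Lefty genes, which encode secreted antagonists of Nodal and lie on chromosome 1. Lefty1 went from 138 and 139.5 to 0.887 and 0.581 CPM, a 189.8-fold decrease (log2 fold change -7.57 ± 0.15 SE, edgeR adjusted p = 1.59e-18). Lefty2 went from 877 and 859 to 11 and 10.03 CPM, an 82.7-fold decrease. Beside these values, the median log2 fold change of chromosome 1 genes was -0.49. Second 2i averaged 66.2 CPM for Lefty1 and 545 CPM for Lefty2, and the original serum cultures 156 and 398 CPM, so both genes were lowest in long 2i.

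Other large decreases fell on genes of several kinds. Krt7, a keratin of simple epithelia, went from 8.89 and 8.28 to 0.177 and 0.106 CPM, 59-fold. Gad2, which makes the transmitter GABA, held 142 and 145 counts in first 2i, against 0 and 2 counts in long 2i, too few for a fold. Ticam2, an adaptor of Toll-like receptor signalling, likewise held 112 and 123 counts and then 3 and 0. These genes were close to absent from both long libraries. Ephx2, the soluble epoxide hydrolase, went from 179 and 169.7 to 6.8 and 7.07 CPM, 25.1-fold. Ablim1, an actin-binding LIM protein, went from 70.3 and 74.1 to 2.42 and 1.9 CPM, 33.5-fold, and Ap3b2, a subunit of the neuronal AP-3 vesicle adaptor, from 47.5 and 50.5 to 1.65 and 1.43 CPM, 31.8-fold. The group also held Dkk3 (28-fold lower), a secreted protein of the Dickkopf family, Cyp39a1 (28.8-fold), an oxysterol hydroxylase, Fbxo16 (30.8-fold) and Enpp5 (23-fold).

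The genes that rose furthest stood low in first 2i, the highest of the 12 being Etv4, described below. Of the 12, 5 lie on the X chromosome, which holds 509 of the 14170 genes placed. Among these 5, 3 are copies of the Xlr family, and DESeq2 did not call 2 of them. Efhc2, an EF-hand protein of the X chromosome, went from 1.22 and 1.75 to 74.1 and 74 CPM, 49.8-fold (log2 fold change 5.64 ± 0.13 SE, edgeR adjusted p = 7.34e-18). Its mean was 1.64 CPM in second 2i, 0.626 CPM in serum and 1.76 CPM after the return to serum, so both long 2i libraries stood above all 8 others. Cited1, a transcriptional coactivator on the X chromosome, went from 0.234 and 0.243 to 7.21 and 7.07 CPM, 29.2-fold. Nefm, a neurofilament subunit, went from 4.4 and 3.7 to 131 and 123 CPM, 31.2-fold. Both long libraries read alike for each of these genes. Trpv5, a calcium channel gene on chromosome 6, went from 0.281 and 0.243 to 8.16 and 7.97 CPM, 30.0-fold. Ptpn13, a tyrosine phosphatase, went from 1.03 and 0.39 to 19.7 and 23 CPM, 29.6-fold, beside a serum mean of 21.1 CPM. Rcsd1, on chromosome 1 and so against the direction of its chromosome, went from 0.234 and 0.0487 to 5.67 and 4.96 CPM, 35.6-fold. Pramel6, of a family expressed in oocytes and early embryos, went from 1.31 and 0.682 to 21.3 and 21 CPM, 21-fold. Etv4 and Dnmt3l complete the 12 beside the Xlr genes and are described with their pathways.

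Members of the Xlr family, X-linked genes related to a protein of the meiotic synaptonemal complex and found in near-identical copies, rose together. The family was singled out after its values were seen. All 10 members in the file were tested, 9 rose and none fell, where 30.4% of all genes tested rose and 30.8% fell. Xlr itself read 0.982 and 0.633 against 0.827 and 0.897 CPM (edgeR adjusted p = 0.867). Xlr3b went from 2.39 and 1.61 to 38.6 and 27.6 CPM, Xlr3c from 2.76 and 1.9 to 35.2 and 33.4 CPM, Xlr4b from 0.982 and 0.779 to 15.3 and 17 CPM and Xlr4c from 0.748 and 0.438 to 11.1 and 13.8 CPM, between 14.6-fold and 20.7-fold higher. Xlr5a went from 0 and 0.243 to 6.92 and 6.23 CPM and Xlr5b from 0.187 and 0 to 22 and 6.6 CPM, with the 2 long libraries of Xlr5b more than 3-fold apart. Reads that align to more than 1 place were not counted for any gene, so values for single Xlr copies are uncertain. The DESeq2 adjusted p was 0.256 for Xlr5a and 0.126 for Xlr5b, which were not called by that test. The call of Xlr5b was also lost with the 4 libraries alone (edgeR adjusted p = 0.0779) and without replicate 1 (0.122) or 2 (0.132) of first 2i. The promoter windows of this pair, 250 bases before the RefSeq start on GRCm38.p6, are shown because they are almost the same sequence: a run of 205 bases is identical in both, displaced by 45 bases. Capitals mark CCGGAAGT, the letters of an ETS factor motif searched on both strands.
Xlr5a promoter, chrX:73117703-73117952, minus strand: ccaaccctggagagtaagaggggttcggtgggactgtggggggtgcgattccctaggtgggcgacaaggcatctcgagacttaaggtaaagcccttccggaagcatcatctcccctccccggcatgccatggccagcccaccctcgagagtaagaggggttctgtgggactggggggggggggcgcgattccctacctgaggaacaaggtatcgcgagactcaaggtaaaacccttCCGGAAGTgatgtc
Xlr5b promoter, chrX:73148591-73148840, plus strand: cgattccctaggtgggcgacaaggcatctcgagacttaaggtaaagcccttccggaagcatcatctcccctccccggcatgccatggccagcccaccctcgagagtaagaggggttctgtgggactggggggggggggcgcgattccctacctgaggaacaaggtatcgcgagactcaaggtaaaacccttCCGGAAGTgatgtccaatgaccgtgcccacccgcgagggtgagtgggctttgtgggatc
The motif stands 14 bases before the start of Xlr5a and 59 bases before that of Xlr5b, inside the shared run. It occurs in 945 of 32851 mouse promoter windows of this length (2.88%), and in 5.41% of those of the genes tested. The share was lower among genes at least 2-fold higher (1.99%) and at least 2-fold lower (1.65%). The letters are a match only, and binding was not measured.

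Further X-linked genes with large increases fell outside the naming rule and were chosen after their values were seen. 1700013H16Rik went from 0.936 and 0.828 to 89.3 and 84.3 CPM, 97.6-fold. Magea5, of a family usually expressed in germ cells and tumours, had no counts in first 2i and read 3.43 and 3.85 CPM in long 2i, at least 51-fold higher than a floor of 3 counts over the group. Pramel3 held 1 and 0 counts in first 2i, against 24 and 27 counts in long 2i. All 3 genes averaged under 1 CPM in serum and in second 2i. Magea5 and Pramel3 passed the filter on low counts through long 2i alone, so they could only be called as rising.

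**Figure D3:**
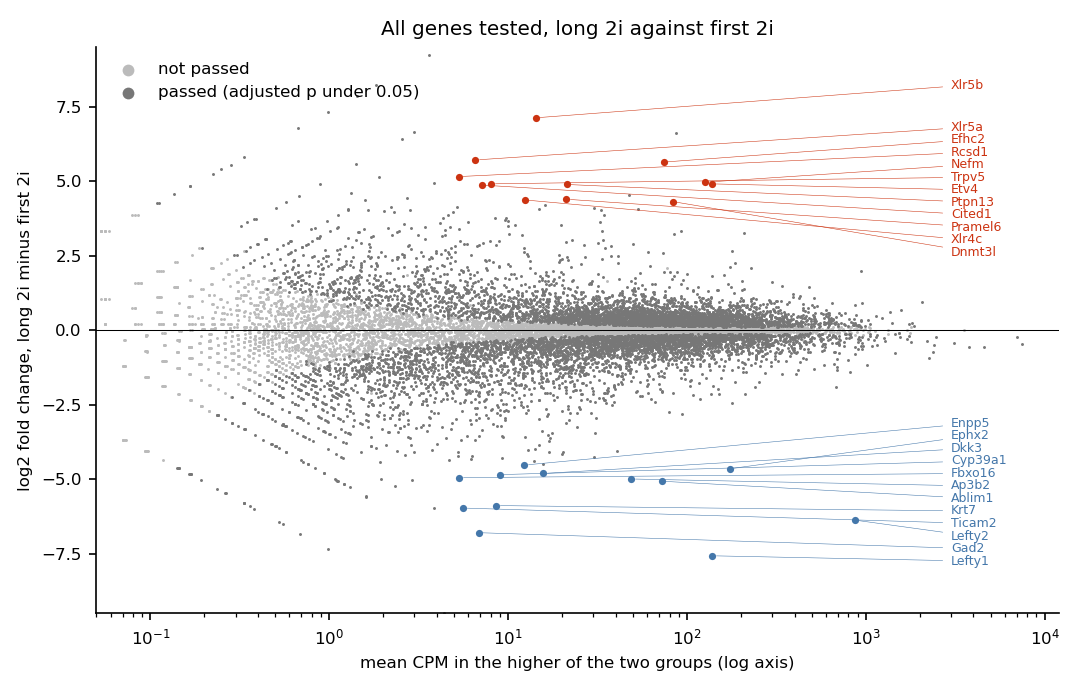
Log2 fold change, long 2i minus first 2i, against the mean CPM in the higher of the groups (log axis), 1 point for each of the 14220 genes tested, dark where it passed, with the 12 largest increases and 12 largest decreases of the naming rule in colour. Large changes lie mostly at low CPM, and genes over 1000 CPM lie close to 0.

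The pathways and gene groups that follow are described by how many of their tested members rose or fell and by their median log2 fold change. These are read against a background in which 30.4% of genes rose and 30.8% fell and the median was -0.00098. The groups were written with earlier results of these data known, and no group is set against chance. Members are named by a rule on the size of their change or, outside that rule, for their known role after their values were seen.

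**Figure D4:**
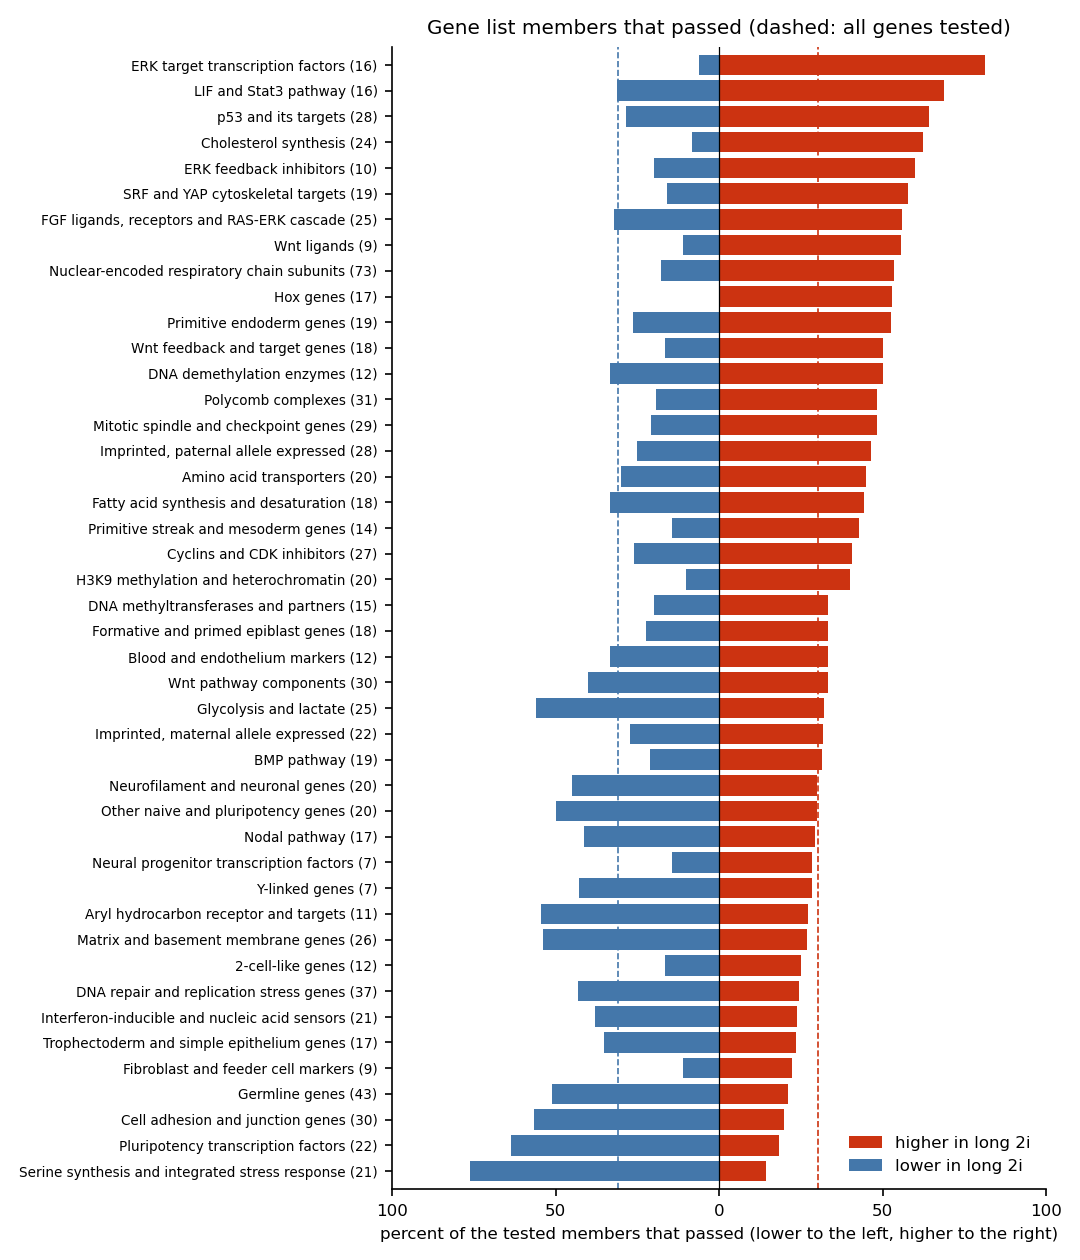
Percent of the tested members of each gene group that rose (right) or fell (left) in long against first 2i, with the number tested in parentheses and the share among all genes tested as dashed lines. ERK target transcription factors (13 of 16) lie at the top and genes of serine synthesis and the integrated stress response (16 of 21 lower) at the bottom.

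The ERK pathway inhibitor was present in both groups. Of 16 tested transcription factor genes that ERK signalling induces, 13 rose and 1 fell, with a median log2 fold change of 1.28. Etv4, an ETS factor of the PEA3 class, went from 4.49 and 4.72 to 135 and 141 CPM, 30.0-fold (log2 fold change 4.91 ± 0.08 SE, edgeR adjusted p = 2.2e-20). Its serum mean was 282 CPM, so long 2i stood between first 2i and serum. Fosl2, an AP-1 subunit, went from 0.421 and 0.195 to 4.61 and 4.06 CPM, 13.7-fold, and Egr1, an immediate-early factor, from 0.421 and 0.438 to 2.78 and 2.96 CPM, 6.61-fold. Etv1 went from 7.58 and 6.92 to 23.4 and 22.2 CPM, 3.14-fold. For these genes the long libraries agreed closely and lay apart from both first libraries. Jun and Junb, also AP-1 subunits, rose 2.61-fold and 2.26-fold and Myc 2.03-fold, from 4.4 and 4.92 to 9.34 and 9.55 CPM. Etv5, on chromosome 16, rose 1.33-fold, from 335 and 344 to 449 and 455 CPM. Klf10 was the gene that fell, from 247 and 242 to 138 and 130.5 CPM, and Ier2 read 184 and 207 against 172 and 209 CPM (edgeR adjusted p = 0.852). Fosb read 0.14 and 0.0487 against 0.236 and 0.422 CPM (edgeR adjusted p = 0.0732). Fos rose 1.87-fold, from 1.82 and 1.66 to 2.78 and 3.69 CPM. Second 2i means were 131 CPM for Fos and 113 CPM for Egr1, above both long 2i libraries.

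Srf, the factor that binds the CArG box of immediate-early promoters and whose own promoter holds such boxes, went from 29.5 and 36.3 to 53.3 and 67.2 CPM, 1.84-fold. Its first and long libraries did not overlap, although replicate 2 was higher in both groups. Its promoter window is shown with the CArG boxes in capitals, found by the name of the motif on either strand.
Srf promoter, chr17:46556163-46556412, minus strand, GRCm38.p6: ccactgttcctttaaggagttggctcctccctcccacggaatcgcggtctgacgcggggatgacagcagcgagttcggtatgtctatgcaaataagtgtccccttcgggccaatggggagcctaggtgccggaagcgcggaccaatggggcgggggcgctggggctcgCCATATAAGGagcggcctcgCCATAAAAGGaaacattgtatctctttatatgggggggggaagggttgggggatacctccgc
The boxes begin 82 and 62 bases before the RefSeq start. A CArG box was found in 482 of 32851 promoter windows (1.47%) and in 1.1% of those of the genes tested. The share was 0.994% for genes at least 2-fold higher and 1.65% for genes at least 2-fold lower. Of the 25 windows available for 19 genes of the ERK feedback and target groups, 6 (24%) held a CArG box and 0 the ETS letters CCGGAAGT. No window was available for some members, among them Etv4, Spry4 and Egr1, and 1 gene can have more than 1 window. These groups hold immediate-early genes, and whether the boxes relate to the change was not tested.

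Feedback inhibitors of ERK signalling went the same way in part. Of 10 tested, 6 rose and 2 fell, with a median of 0.54. Spry4, a Sprouty protein that blocks signalling from FGF receptors, went from 1.92 and 1.51 to 20.3 and 19.06 CPM, 11.4-fold (edgeR adjusted p = 3.48e-15). Dusp6, the cytoplasmic phosphatase of ERK, went from 19.2 and 15.7 to 38.4 and 38.3 CPM, 2.2-fold. Spry2 went from 106 and 107 to 184 and 189 CPM, 1.75-fold. The long libraries exceeded the first ones for all 3, but serum means stood higher still, at 407 CPM for Spry4, 191 CPM for Dusp6 and 257 CPM for Spry2. Spred3 and Dusp4 rose 3.27-fold and 2.77-fold at low levels, from 2.06 and 2.24 to 7.57 and 6.55 CPM and from 0.748 and 1.27 to 2.6 and 2.96 CPM. Dusp5, the nuclear ERK phosphatase, fell, from 1.82 and 2.78 to 1.0 and 0.739 CPM, and so did Spred2, 1.25-fold. Spry1 read 8.09 and 6.14 against 8.87 and 7.71 CPM (edgeR adjusted p = 0.196) and Il17rd 70.2 and 69.4 against 67.5 and 64.2 CPM (edgeR adjusted p = 0.223).

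Among 25 ligands, receptors and cascade genes upstream of these, 14 rose and 8 fell (median 0.29). The ligand gene Fgf4 fell 1.39-fold, from 227 and 238 to 165 and 169 CPM. Receptor genes rose: Fgfr1 1.59-fold, from 95.8 and 105 to 158 and 162 CPM, Fgfr2 7.22-fold, from 0.936 and 0.974 to 6.38 and 7.44 CPM, and Fgfr3 5.43-fold, from 0.374 and 0.584 to 2.48 and 2.74 CPM. Fgfr4 did not pass, at 0.468 and 0.828 against 0.709 and 1.27 CPM (edgeR adjusted p = 0.225). Ptpn11, the phosphatase Shp2, rose 1.67-fold and the adaptor gene Shc1 1.54-fold. The kinase gene Mapk3 (ERK1) fell 1.55-fold, from 58.4 and 60.5 to 37.5 and 39.3 CPM. Map2k1 fell 1.29-fold while Map2k2 rose 1.25-fold. Fgf17, an FGF8-like ligand, rose 4.27-fold from low levels, from 3.41 and 2.78 to 13.7 and 12.8 CPM.

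**Figure D5:**
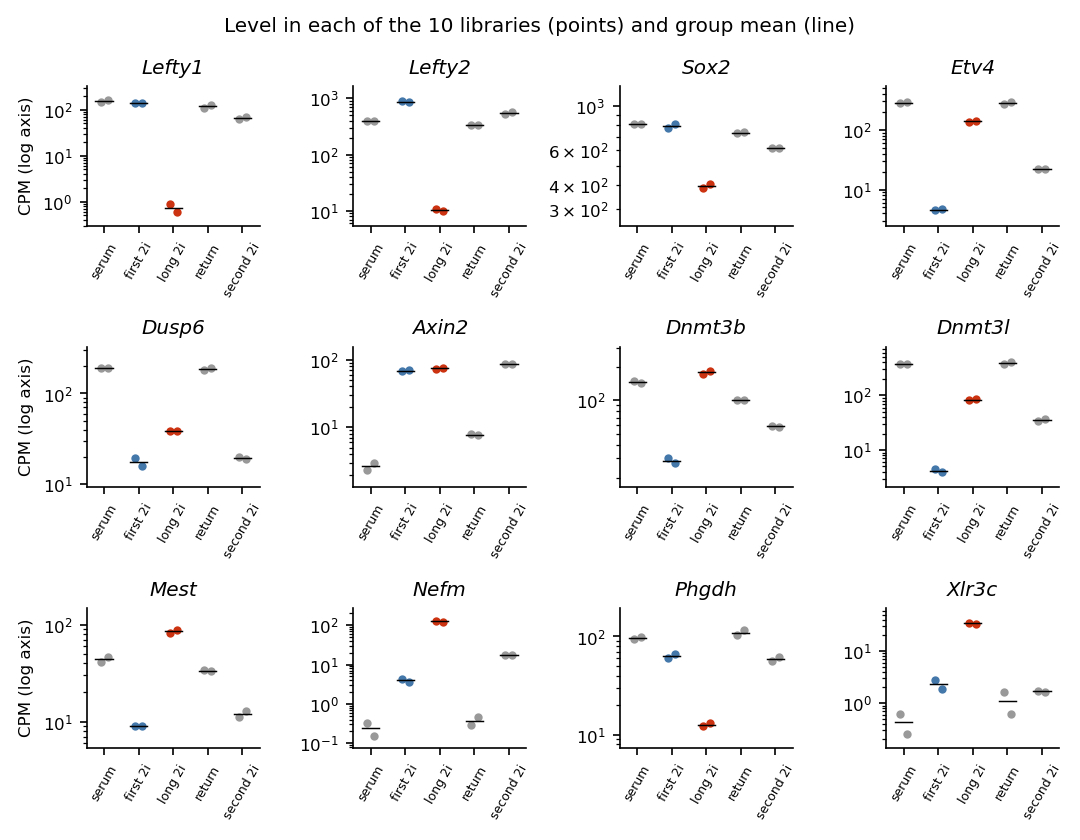
CPM (log axis) of 12 genes in each of the 10 libraries, 1 point per library and a line at the group mean, with first 2i in blue, long 2i in red and the other cultures in grey. Lefty1, Lefty2, Sox2 and Phgdh are lower and Etv4, Dusp6, Dnmt3b, Dnmt3l, Mest, Nefm and Xlr3c higher in both long 2i libraries than in both first 2i libraries, while Axin2, which did not pass, lies close in both groups.

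Targets of the Wnt pathway, which GSK3 inhibition switches on, rose in part. Of 18 tested feedback and target genes, 9 rose and 3 fell (median 0.50). Axin2, the feedback inhibitor used most often as a readout, did not pass, at 66.9 and 70.5 against 73 and 75.2 CPM (edgeR adjusted p = 0.162). The factor gene Tcf7 did not pass either, at 68.7 and 68.5 against 66.8 and 73.5 CPM (edgeR adjusted p = 0.676). Lef1, the partner of β-catenin in later tissues, went from 0.608 and 0.195 to 1.48 and 2.22 CPM, 4.54-fold. T, the primitive streak factor brachyury, went from 1.45 and 1.17 to 3.07 and 3.43 CPM, 2.48-fold, and Cdx1, a caudal homeobox factor, from 5.71 and 6.28 to 10.1 and 13.8 CPM, 2.01-fold. Ccnd1, the gene of cyclin D1, went from 44.8 and 42.2 to 105 and 113 CPM, 2.5-fold. These rises were seen in both long libraries, at levels that for Lef1 and T stayed under 4 CPM. Cdx2 held 0 and 1 counts in first 2i and read 0.827 and 0.95 CPM in long 2i. Notum, a secreted enzyme that inactivates Wnt ligands, fell 2.76-fold, from 118 and 126 to 42.7 and 45.8 CPM. Rnf43, which removes Wnt receptors from the surface, fell 3.25-fold, from 1.17 and 1.95 to 0.473 and 0.475 CPM, and the homeobox gene Nkx1-2 fell 5.17-fold, from 12.8 and 14 to 2.13 and 3.01 CPM.

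Sp5, a zinc finger factor downstream of β-catenin, rose 1.73-fold, from 12 and 17.2 to 20.5 and 29.7 CPM, with a log2 fold change of 0.79 ± 0.21 SE. Replicate 2 of Sp5 was higher in both groups. The call was lost when only the 4 libraries were fitted (edgeR adjusted p = 0.066) and stood with the title series as a block. Its promoter window is shown because Sp5 is a standard target of TCF/LEF factors; capitals mark the letters CTTTGAT, searched on both strands.
Sp5 promoter, chr2:70474673-70474922, plus strand, GRCm38.p6: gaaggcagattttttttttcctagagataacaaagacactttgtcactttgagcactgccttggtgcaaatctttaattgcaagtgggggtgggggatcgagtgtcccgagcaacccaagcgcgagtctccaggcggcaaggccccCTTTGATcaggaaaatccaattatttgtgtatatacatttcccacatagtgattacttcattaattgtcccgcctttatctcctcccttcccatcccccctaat
The match begins 104 bases before the RefSeq start. The motif occurs in 1053 of 32851 promoter windows (3.21%) and in 2.23% of those of the genes tested. The share was nearly the same among genes at least 2-fold higher (2.24%) and at least 2-fold lower (2.15%).

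Genes of the Wnt machinery moved both ways, 10 up and 12 down of 30 (median -0.065). Without chromosomes 1, 6 and 16 the balance lay further down, at 6 up and 11 down of 24 with a median of -0.25. Gsk3b, which encodes a target of the inhibitor and lies on chromosome 16, rose 1.56-fold, from 104 and 104 to 162 and 164 CPM, and Gsk3a read 51.6 and 60.05 against 58.3 and 70.4 CPM (edgeR adjusted p = 0.0566). Ctnnb1, the β-catenin gene, fell 1.19-fold, from 1267 and 1261 to 1067 and 1059 CPM. Tcf7l1, the repressor that β-catenin counters, rose 1.14-fold and lies on chromosome 6. Receptor genes split. Fzd7, on chromosome 1, fell 3.26-fold, from 99.9 and 109 to 30.7 and 33.1 CPM, and Lrp5 fell 2.28-fold, from 112 and 124 to 45.6 and 58.1 CPM, whereas Fzd2 rose 7.57-fold, from 0.936 and 0.974 to 6.8 and 7.71 CPM, and Lrp6, on chromosome 6, 1.39-fold. Wls, needed to secrete Wnt proteins, rose 1.78-fold, from 36.2 and 34.6 to 64.5 and 61.7 CPM. Of 9 tested ligand genes 5 rose and 1 fell (median 1.22), all at low levels, and without those chromosomes 2 rose and 1 fell of 6 (median 0.87). Wnt6, on chromosome 1, rose 6.15-fold, from 1.68 and 2.34 to 11.6 and 13 CPM, Wnt5b, on chromosome 6, 2.32-fold, and Wnt3a 8.78-fold, from 0.14 and 0.243 to 1.48 and 1.95 CPM.

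With the Lefty genes, the Nodal pathway counted 5 up and 7 down of 17 (median -0.047). Without chromosomes 1, 6 and 16 it was 5 up and 5 down of 14 (median 0.044). The ligand gene Nodal itself read 92.2 and 93.1 against 86.9 and 92.3 CPM (edgeR adjusted p = 0.515). Skil, which encodes the SMAD corepressor SnoN and is itself induced by Nodal and activin, fell 3.49-fold, from 60.2 and 61.4 to 18.7 and 16.2 CPM. Smad7, the feedback inhibitor of the SMADs, fell 1.88-fold, from 127 and 148 to 68.6 and 77.2 CPM. Tdgf1, the Nodal co-receptor Cripto, fell 1.43-fold, from 449 and 423 to 315 and 294 CPM, and Smad3 1.69-fold, from 58.7 and 64.8 to 33.2 and 39.6 CPM. The long libraries lay below both first libraries for each of these genes. Foxh1, the DNA-binding partner of the SMADs, rose 1.47-fold, from 49.2 and 51.7 to 72.2 and 76.1 CPM, and Smad2 and Smad4 rose 1.21-fold and 1.2-fold.

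BMP pathway genes counted 6 up and 4 down of 19 (median 0.16, or 0.11 without the gene at or under the floor of 3 counts over a group in both groups). The Id genes, direct BMP targets that block differentiation factors, were not uniform. Id1 rose 7.85-fold, from 2.81 and 2.58 to 19.7 and 22.6 CPM, Id3 2.63-fold, from 19.09 and 19.3 to 48.5 and 52.3 CPM, and Id2 2.47-fold, from 0.889 and 1.02 to 1.95 and 2.74 CPM, whereas Id4 fell 3.72-fold, from 20.6 and 21 to 6.15 and 5.07 CPM. Serum means were 186 CPM for Id1 and 44.6 CPM for Id3. Among the ligands, Bmp4 rose 1.23-fold, from 32.3 and 32.3 to 37.9 and 41.7 CPM, and Bmp7 fell 4.44-fold, from 7.44 and 7.94 to 1.6 and 1.85 CPM. Bmpr2, the type II receptor on chromosome 1, fell 1.81-fold.

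In the LIF and Stat3 pathway all 16 tested genes changed, 11 up and 5 down (median 0.33), mostly by less than 2-fold. Stat3 rose 1.41-fold, from 141 and 146 to 200.5 and 203 CPM, and Lifr, the LIF receptor, 1.25-fold, from 59.7 and 51.6 to 70.8 and 68.7 CPM. Lif itself rose 1.86-fold, from 7.06 and 8.28 to 14.5 and 14 CPM. The feedback genes Socs3 and Cish, both Stat targets, rose 1.36-fold and 2.51-fold. Socs1, on chromosome 16, rose 3.03-fold with uneven long libraries, from 0.561 and 0.877 to 1.3 and 3.01 CPM, and its call was lost without replicate 2 of long 2i (edgeR adjusted p = 0.151). Pim1 and Jak2 fell 1.43-fold and 1.37-fold, and Il6st, the shared receptor subunit gp130, fell 1.11-fold.

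Pluripotency factors were lower in long 2i by modest amounts. Of 22 transcription factor genes 14 fell and 4 rose (median -0.40), and without the 7 genes of chromosomes 1, 6 and 16 it was 10 down and 2 up of 15. Sox2 went from 775 and 811 to 382 and 404 CPM, 2.02-fold lower (log2 fold change -1.01 ± 0.05 SE, edgeR adjusted p = 2.29e-13). Klf4 went from 421 and 436 to 274 and 292 CPM, 1.51-fold lower, and Tbx3 from 355 and 377 to 236 and 243 CPM, 1.53-fold lower. In each case the long libraries lay clearly below the first ones. Nr5a2, Prdm14 and Tfcp2l1 all lie on chromosome 1 and fell 1.98-fold, 1.88-fold and 1.66-fold, Tfcp2l1 from 2408 and 2337 to 1441 and 1422 CPM. The chromosome's median decrease was 1.41-fold. Nanog, on chromosome 6, fell 1.26-fold, from 1117 and 1119 to 907 and 866 CPM, against the direction of its chromosome. Pou5f1 went from 1052 and 1075 to 890.3 and 948 CPM and Esrrb from 1119 and 1168 to 952 and 1002 CPM, 1.16-fold and 1.17-fold lower. Klf2, a factor of the naive state, went from 178 and 242 to 80.2 and 113 CPM, with replicate 2 higher in both groups. Its call was lost when only the 4 libraries were fitted (edgeR adjusted p = 0.0892). The call stood with the title series as a block, whose meaning the labels do not give. Its log2 fold change was -0.881 without replicate 2 of first 2i and -0.901 without replicate 1 of long 2i, and both fits lost the call.

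Some members went the other way. Gbx2, a homeobox gene on chromosome 1, rose 3.9-fold, from 4.26 and 4.09 to 14.9 and 17.6 CPM, against a serum mean of 122 CPM. Sall4 and Zscan10 rose 1.26-fold and 1.41-fold. Zfp42, the naive marker Rex1, did not pass, at 631 and 615 against 655 and 639.5 CPM (edgeR adjusted p = 0.32), nor did Nr0b1, at 101 and 113 against 103 and 112 CPM (edgeR adjusted p = 0.915). Of 20 further pluripotency-associated genes 10 fell and 6 rose (median -0.14, or -0.18 with genes under the floor set aside), and without chromosomes 1, 6 and 16 it was 10 down and 3 up of 17. The paralogs of the let-7 regulator Lin28 moved apart: Lin28a rose 4.35-fold, from 40.04 and 39.6 to 173 and 174 CPM, and Lin28b fell 3.19-fold, from 24.6 and 24 to 7.62 and 7.6 CPM. Alpl, the alkaline phosphatase used to stain stem cell colonies, fell 2.75-fold, from 324 and 355 to 119 and 127 CPM. Dppa5a fell 1.95-fold and Pecam1 1.82-fold, from 116 and 125 to 63.2 and 69.4 CPM. E-cadherin, encoded by Cdh1, did not pass, at 506 and 532 against 531 and 544 CPM (edgeR adjusted p = 0.362). As a check of the labelled cell type, the 7 markers of embryonic stem cells summed to 7524 and 7560 CPM in first 2i and to 5502 and 5574 CPM in long 2i, and 6 of them fell.

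Genes of the formative and primed epiblast split, with 6 up, 4 down and 8 that did not pass of 18 (median 0.14, or 0.20 with genes under the floor set aside). Otx2, which drives exit from the naive state, fell 2.08-fold, from 48.3 and 47 to 23.3 and 22.6 CPM, while Sox11, a neural and epiblast factor, rose 8.36-fold, from 0.515 and 0.292 to 3.78 and 3.11 CPM. Dnmt3b and Etv4, which stand in this group too, rose. Pou3f1 and Zic2 did not pass, at 0.0468 and 0.0974 against 0.118 and 0.264 CPM (edgeR adjusted p = 0.244) and 20.3 and 19.8 against 19.9 and 22.6 CPM (edgeR adjusted p = 0.469).

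Among DNA methylation genes, Dnmt3l and Dnmt3b rose most. Of 15 methyltransferase and partner genes 5 rose, 3 fell and 7 did not pass (median 0.053), and without chromosomes 1, 6 and 16 it was 3 up and 3 down of 13 (median 0.0028). Dnmt3l, the cofactor of the de novo enzymes, went from 4.44 and 3.94 to 83 and 84.2 CPM, 19.9-fold higher (log2 fold change 4.31 ± 0.09 SE, edgeR adjusted p = 6.9e-19). Dnmt3b went from 30.1 and 27.2 to 174 and 184 CPM, 6.24-fold higher. Dnmt3a went from 22.6 and 24.5 to 16.7 and 17.9 CPM, 1.36-fold lower, so the catalytic partners moved in opposite directions. For comparison, serum cultures averaged 370.0 CPM for Dnmt3l, 147 CPM for Dnmt3b and 50.8 CPM for Dnmt3a, and second 2i 35.1, 58.3 and 17 CPM. The maintenance enzyme Dnmt1 read 507 and 533 against 484 and 513 CPM (edgeR adjusted p = 0.301), and its guide Uhrf1 511 and 539 against 543 and 546 CPM (edgeR adjusted p = 0.326). Dppa3, which keeps Uhrf1 off chromatin and lies on chromosome 6, rose 1.47-fold, from 12.2 and 13 to 18.9 and 18.2 CPM. Zfp57, which protects imprints, fell 1.16-fold, from 849 and 809 to 722 and 708 CPM.

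On the side of demethylation 6 of 12 tested genes rose and 4 fell (median 0.19). Tet1 and Tet2, which oxidise 5-methylcytosine, rose 1.33-fold and 1.19-fold, and Tet3, on chromosome 6, read 20.7 and 23.9 against 16.9 and 20.9 CPM (edgeR adjusted p = 0.065). Gadd45b and Gadd45g, stress-induced genes linked to active demethylation, rose 6.14-fold, from 10.2 and 9.54 to 58.1 and 63.1 CPM, and 7.2-fold, from 0.281 and 0.487 to 2.78 and 2.8 CPM. Gadd45g passed the filter on low counts through long 2i alone and could only be counted as rising. Neil3, a DNA glycosylase, fell 3.34-fold, from 14 and 13.9 to 3.25 and 5.01 CPM.

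Polycomb genes, which silence developmental loci through H3K27 methylation and H2A ubiquitylation, counted 15 up and 6 down of 31 (median 0.13). Bmi1, a subunit of the canonical repressive complex 1, rose 2.17-fold, from 35.1 and 33.9 to 77.2 and 72.5 CPM, and the chromobox genes Cbx8 and Cbx2 rose 2.61-fold and 1.48-fold. Complex 2 genes split: Aebp2 and Ezh2, both on chromosome 6, rose 2.06-fold, from 113 and 109 to 234 and 223 CPM, and 1.44-fold, whereas Suz12 and Ezh1 fell 1.34-fold and 1.48-fold. Rnf2, the main E3 ligase of complex 1 and a chromosome 1 gene, fell 1.53-fold, from 329 and 309.9 to 213 and 205 CPM. Genes of H3K9 methylation and heterochromatin counted 8 up, 2 down and 10 that did not pass of 20 (median 0.084). Setdb1, which silences retroelements with Trim28, rose 1.49-fold, from 225 and 228 to 339 and 337 CPM, and Atrx 1.43-fold, and Trim28 read 1586 and 1701 against 1704 and 1858 CPM (edgeR adjusted p = 0.15). The demethylase genes Kdm4a and Kdm4b fell 1.3-fold and 1.41-fold.

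Imprinted genes, expressed from 1 parental allele, included some of the larger changes, in both directions. Of 28 tested genes expressed from the paternal allele 13 rose and 7 fell (median 0.29, or 11 up and 8 down of 23 and 0.40 without chromosomes 1, 6 and 16), and of 22 expressed from the maternal allele 7 rose and 6 fell (median 0.084, or 0.082 with genes under the floor set aside). Mest and Peg10, both on chromosome 6, rose 9.42-fold, from 8.98 and 9.06 to 82 and 87.9 CPM, and 3.95-fold, from 243 and 236 to 976 and 912 CPM. Peg3, a zinc finger gene, rose 2.18-fold, from 18.4 and 22.7 to 42.7 and 46.7 CPM, and Sfmbt2, a Polycomb-related gene, 3.34-fold, from 15.2 and 15.6 to 51.5 and 51.6 CPM. Peg13 held 0 and 1 counts in first 2i and read 2.07 and 3.91 CPM in long 2i. In the Dlk1-Dio3 cluster the maternal noncoding RNAs rose together, Meg3 1.99-fold, from 155 and 162 to 311 and 320.3 CPM, Rian 1.95-fold and Mirg 2.44-fold. The paternal gene Dio3 of that cluster, a thyroid hormone deiodinase, fell 16.4-fold, from 14.1 and 11.6 to 0.591 and 0.95 CPM. Rtl1, another paternal gene there, rose 4.1-fold, from 5 and 7 counts to 14 and 29 counts, a call lost without replicate 2 of long 2i (edgeR adjusted p = 0.0757). A maternal transcript runs antisense to Rtl1, and without a stated strand setting the reads of the pair cannot be told apart. Dlk1 read 0 and 0.195 against 0.236 and 0.475 CPM (edgeR adjusted p = 0.107), and Igf2 0.14 and 0.146 against 0.177 and 0.528 CPM (edgeR adjusted p = 0.131). Falls were also seen at Gnas (2.12-fold), Phactr2 (2.63-fold), Peg12 (2.5-fold) and Ndn (1.44-fold). Allele-specific expression was not measured.

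Germline genes, many of which are silenced by promoter methylation, mostly fell. Of 43 tested, 22 fell and 9 rose (median -0.52). Prdm1, the germ cell specifier Blimp1, fell 5.33-fold, from 40.7 and 38.1 to 7.39 and 7.39 CPM. Dmc1, the meiotic recombinase, fell 16.8-fold, from 5.24 and 5.26 to 0 and 0.581 CPM, and Piwil1, a piRNA-binding protein, 4.28-fold, from 3.7 and 3.02 to 0.946 and 0.633 CPM. Tdrd1, Sycp2 and Tdrd5, the last on chromosome 1, fell 5.76-fold, 4.6-fold and 4.37-fold from levels under 3 CPM. A smaller set rose in both long libraries. Fkbp6, needed for meiotic synapsis, rose 10.03-fold, from 9.03 and 9.5 to 93.1 and 92.7 CPM. Dazl, an RNA-binding germ cell factor, rose 2.27-fold, from 36.4 and 30.3 to 81.4 and 70.4 CPM, and Asz1, on chromosome 6, 7.14-fold, from 0.374 and 0.39 to 2.9 and 2.64 CPM. Asz1 passed the filter through long 2i alone and could only be counted as rising. Ddx4 and Sycp3 did not pass, at 6.69 and 7.01 against 5.85 and 5.49 CPM (edgeR adjusted p = 0.125) and 14.2 and 14.3 against 15.8 and 10.7 CPM (edgeR adjusted p = 0.513).

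Genes of the 2-cell-like state, a rare state of stem cell cultures that resembles the 2-cell embryo, included Zscan4 copies that were near 0 in these 4 libraries. Of 12 tested, 3 rose and 2 fell, and the fitted median of -0.88 became -0.091 with genes at 0 in a group set at their bound and those under the floor in both set aside. Zscan4d held 7 and 4 counts in first 2i and 0 in both long libraries, at least 3.14-fold lower. Zscan4a held 5 and 2 counts in first 2i and 0 in long 2i, at least 2.0-fold lower. Second 2i averaged 3.7 CPM for Zscan4d. Pramel7, a paralog of Pramel6, rose 9.15-fold, from 0.515 and 0.438 to 4.67 and 4.17 CPM. Zscan4 genes are near-identical copies, so their counts are uncertain.

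Developmental genes kept low levels with some rises. Of 17 tested Hox genes 9 rose and none fell (median 0.96), and 22 further Hox genes in the file were too low to test. The filter keeps a gene that has counts in 1 group only. Hoxc5 and Hoxc6 passed it through long 2i alone and could only be counted as rising, so the count and the median lean towards rises. Hoxc13 rose 1.95-fold, from 11 and 11.1 to 22.7 and 20.4 CPM, and Hoxb9 2.23-fold, from 4.72 and 6.09 to 11.5 and 12.6 CPM. Hoxd13 rose 4.76-fold, from 0.374 and 0.39 to 1.77 and 1.9 CPM. Hoxc5 held 1 count in each first library and read 2.13 and 1.69 CPM in long 2i, beside Hoxc6 at 0 and 0.195 CPM and 1.12 and 0.897 CPM. DESeq2 gave an adjusted p of 0.529 for Hoxc6. The rises were not limited to 1 cluster, since Hoxc, Hoxb and Hoxd genes all took part.

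Neuronal genes changed strongly and without a common direction, 6 up and 9 down of 20 (median -0.41). Nefl, the light neurofilament subunit, rose 3.49-fold, from 39.6 and 39.8 to 137 and 140.2 CPM, beside Nefm, while Nefh, the heavy subunit, fell 1.34-fold, from 9.73 and 9.5 to 6.56 and 7.71 CPM. Tubb3, a neuronal β-tubulin, rose 5.21-fold, from 6.74 and 6.18 to 31.1 and 36.2 CPM. The GABA enzymes moved apart, since Gad1 rose 11.6-fold, from 0.982 and 0.877 to 12 and 9.82 CPM, and Gad2 was nearly lost. Chga, a chromogranin of secretory vesicles, fell 3.6-fold, from 11.7 and 13.1 to 3.61 and 3.27 CPM, and Stmn3 and Stmn2 fell 3.28-fold and 1.47-fold. Pax6, a neural progenitor factor, held 1 and 0 counts in first 2i and read 2.36 and 2.74 CPM in long 2i. Of 7 tested neural progenitor factors 2 rose and 1 fell, and Sox1 read 8.51 and 9.84 against 7.86 and 8.18 CPM (edgeR adjusted p = 0.236). The 7 markers of neurons and neural progenitors summed to 21.24 and 21.52 CPM in first 2i and 45.81 and 51.04 CPM in long 2i. Nearly all of this rise came from Tubb3, at 6.74 and 6.18 against 31.1 and 36.2 CPM. Of the 6 tested markers 2 rose and 1 fell, with Dcx at 0 in all 4 libraries.

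Primitive endoderm genes counted 10 up and 5 down of 19 (median 0.65), and without chromosomes 1, 6 and 16 they counted 10 up and 3 down of 17 (median 0.77). Dab2, an adaptor of endocytosis, rose 7.25-fold, from 0.936 and 1.41 to 8.27 and 8.76 CPM, Gata4 2.11-fold, from 2.48 and 1.95 to 3.96 and 5.38 CPM, and Col4a1 4.15-fold, from 0.842 and 0.828 to 3.13 and 3.8 CPM. Gata6, the master regulator of the lineage, read 0.468 and 0.682 against 0.591 and 0.792 CPM (edgeR adjusted p = 0.59), and Sox17, on chromosome 1, fell 3.82-fold, from 0.515 and 0.584 to 0 and 0.264 CPM. The 7 defining markers summed to 6.549 and 6.039 CPM in first 2i and 15.96 and 19.48 CPM in long 2i, and of 6 tested 3 rose and 1 fell. Most of the rise in this sum came from Dab2. In the trophectoderm group 4 rose and 6 fell of 17 (median 0.024). Without chromosomes 1, 6 and 16 it was 4 up and 4 down of 14, with a median of 0.63. Gata2, on chromosome 6, fell 11.7-fold, from 5.57 and 6.28 to 0.65 and 0.369 CPM, and Cdh3, P-cadherin, 5.98-fold, from 22.2 and 27.7 to 3.13 and 5.12 CPM. Gata3 rose 5.51-fold, from 0.327 and 0.536 to 2.36 and 2.43 CPM. Its 7 markers summed to 34.57 and 35.36 CPM and then 21.81 and 21.06 CPM, 2 of the 5 tested rising and 2 falling, with Hand1 at 0 in all 4 libraries. Of 14 primitive streak and mesoderm genes 6 rose and 2 fell (median 0.60, or 0.20 with genes under the floor set aside), and 5 rose and 2 fell of the 11 outside chromosomes 1, 6 and 16. Kdr, the VEGF receptor Flk1, rose 5.0-fold, from 0.889 and 1.12 to 5.56 and 4.54 CPM, and Snai1, a repressor of E-cadherin, 3.31-fold, from 0.936 and 1.36 to 3.13 and 4.43 CPM. Eomes fell 1.53-fold, from 22 and 22.6 to 15.7 and 13.6 CPM, and Gsc read 3.79 and 4.82 against 3.84 and 5.96 CPM (edgeR adjusted p = 0.469). The 5 markers of mesoderm summed to 3.555 and 3.165 CPM in first 2i and 9.339 and 8.709 CPM in long 2i. Of the 4 tested 2 rose and 0 fell, and Mesp1 was at 0 in all 4 libraries. Most of the rise in the mesoderm sum came from Kdr.

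Cytoskeletal targets of SRF and YAP rose in 11 and fell in 3 of 19 tested genes (median 0.55, or 0.60 with genes under the floor set aside). Cyr61 and Ctgf, secreted matricellular proteins induced by YAP, rose 4.8-fold, from 8.84 and 8.28 to 41.4 and 40.9 CPM, and 2.93-fold, from 21.9 and 21.6 to 61.6 and 65.9 CPM. Thbs1, thrombospondin 1, rose 16.3-fold, from 0.187 and 0.146 to 3.07 and 2.59 CPM. Lats2, the kinase that restrains YAP, and Amotl2 rose 2.0-fold and 1.57-fold. Tpm2 and Axl fell 3.63-fold and 3.33-fold, and Vcl, vinculin, read 163 and 154 against 165 and 169.8 CPM (edgeR adjusted p = 0.198). The part of Srf, whose level was higher in the same libraries, was not tested.

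Cell junction genes fell more often than they rose, 17 down and 6 up of 30 (median -0.48), and matrix and basement membrane genes did likewise, 14 down and 7 up of 26 (median -0.36, or 11 down and 7 up of 21 and -0.21 without chromosomes 1, 6 and 16). Desmosomal genes fell: Dsp, desmoplakin, 3.91-fold, from 147 and 150.1 to 38.1 and 38 CPM, Dsc2 3.91-fold, Dsg2 1.68-fold, from 325 and 342 to 194 and 203 CPM, and Pkp2 (chromosome 16) 2.96-fold, from 51.3 and 48.6 to 15.8 and 17.8 CPM. Epcam, an adhesion molecule of epithelia, fell 1.83-fold, from 72.6 and 78.5 to 43.1 and 39.6 CPM, and the integrin gene Itgb5, on chromosome 16, 2.53-fold, from 89.6 and 92.9 to 34.2 and 37.8 CPM. The claudin gene Cldn4 and the integrin gene Itga5, by contrast, rose 1.23-fold and 2.2-fold, and Esam, an adhesion molecule known from endothelium, 17.7-fold, from 0.374 and 0.195 to 4.85 and 5.49 CPM. In the basement membrane, Nid1, nidogen 1, fell 2.53-fold, from 683 and 706 to 271 and 278 CPM, and Fn1, fibronectin, on chromosome 1, 1.91-fold, from 2154 and 2354 to 1141 and 1224 CPM. The collagen prolyl hydroxylase genes P4ha1 and P4ha2 fell 2.75-fold and 3.41-fold. Lama5, a laminin α chain, and Hspg2, perlecan, rose instead, 2.7-fold, from 165 and 189.8 to 456 and 502 CPM, and 3.09-fold, from 93.5 and 101 to 283 and 317 CPM.

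Cell cycle genes changed by small amounts. Of 29 spindle and checkpoint genes 14 rose and 6 fell (median 0.062), and only Sgol2, the protector of meiotic cohesion, on chromosome 1, moved by 2-fold or more, from 303 and 286 to 137 and 121 CPM. Cdc20, Birc5 and Plk1 rose 1.37-fold, 1.39-fold and 1.34-fold. Of 37 DNA repair and replication stress genes 16 fell and 9 rose (median -0.10). Mcm6 and Mcm3, subunits of the replicative helicase, and Parp1 all lie on chromosome 1 and fell 2.27-fold, from 1022 and 1022 to 448 and 451 CPM, 1.53-fold and 1.7-fold. Of the other helicase subunits, Mcm2, on chromosome 6, and Mcm5 rose 1.23-fold and 1.14-fold, and Mcm4, on chromosome 16, read 557 and 526 against 562 and 536 CPM (edgeR adjusted p = 0.753). The mismatch repair gene Msh6 fell 1.31-fold, from 907 and 908 to 688 and 700.0 CPM. Among cyclins and inhibitors 11 rose and 7 fell of 27 (median 0.12). Ccne1, cyclin E1, rose 1.96-fold, from 71.1 and 66.1 to 133 and 136 CPM, beside Ccnd1 and Myc. Cdkn2b, at the Ink4 locus, rose 1.82-fold, from 3.13 and 3.21 to 5.38 and 6.18 CPM. Cdkn2a went from 27.6 and 32 to 35.6 and 37.5 CPM, and its call was not made by DESeq2 (adjusted p = 0.0718), nor by edgeR without replicate 1 of first 2i (0.171) or replicate 2 of long 2i (0.0722). Cdkn1a, the inhibitor p21, fell 1.41-fold, from 219 and 219.8 to 149 and 162 CPM, and Cdkn1b, on chromosome 6, 1.25-fold.

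Targets of p53 mostly rose although the p53 gene and p21 fell. Of 28 genes 18 rose and 8 fell (median 0.38). Trp53 itself fell 1.21-fold, from 383 and 407 to 310.3 and 339.8 CPM. The kinase gene Plk2 rose 2.65-fold, from 37.7 and 38.3 to 100.4 and 101 CPM, and Pidd1, an adaptor of caspase 2, 2.56-fold, from 42.8 and 42.3 to 103 and 114 CPM. Bax, a pore-forming death effector, rose 1.7-fold, from 113 and 121 to 189.7 and 209 CPM, Bbc3, which encodes Puma, 1.62-fold, and Mdm2, the ligase that destroys p53, 1.26-fold. Phlda3 rose 1.77-fold although it lies on chromosome 1. Pmaip1, which encodes Noxa, went down 3.91-fold, from 14 and 12.4 to 2.96 and 3.75 CPM. The death genes of this group therefore did not share a direction.

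Metabolic groups went in several directions. Glycolysis genes fell in 14 and rose in 8 of 25 (median -0.38). Aldoc, an aldolase, fell 5.38-fold, from 33.3 and 37 to 6.09 and 6.91 CPM, Ldhb, a lactate dehydrogenase on chromosome 6, 2.77-fold, from 409.7 and 404 to 145 and 149 CPM, and Pfkp, a phosphofructokinase, 1.65-fold, from 329.8 and 342 to 200.4 and 206 CPM. The glucose transporter gene Slc2a1 rose 1.47-fold, from 159.5 and 153 to 229 and 232 CPM, and Hk2, hexokinase 2 on chromosome 6, 1.8-fold, from 266 and 288 to 479 and 519 CPM. Pfkfb3, an activator of glycolytic flux, rose 2.63-fold, from 5.47 and 6.33 to 15.5 and 15.5 CPM. Several glycolytic enzymes have processed pseudogenes, so their counts are uncertain.

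Subunits of the respiratory chain encoded in the nucleus counted 39 up and 13 down of 73 (median 0.32). Atp5e, a subunit of ATP synthase, rose 2.23-fold, from 26.9 and 25.6 to 57.4 and 59.9 CPM, Ndufa4, on chromosome 6, 1.81-fold, from 115 and 110.3 to 208 and 199 CPM, and the complex I genes Ndufb6 and Ndufa11 1.69-fold and 1.68-fold. Of the 13 that fell, 5 lie on chromosome 1, among them Ndufs1, Ndufa10, Ndufb3 and Sdhc, which were 1.3-fold to 1.41-fold lower. Without chromosomes 1, 6 and 16 the count was 33 up and 8 down of 60.

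Genes of serine synthesis and the integrated stress response, which Atf4 controls, fell in 16 and rose in 3 of 21 (median -0.60). Phgdh, the first enzyme of serine synthesis, fell 4.94-fold, from 60.3 and 65.7 to 12.3 and 13.1 CPM (log2 fold change -2.31 ± 0.09 SE, edgeR adjusted p = 1.87e-14). Psat1 and Psph, the next enzymes, fell 1.66-fold, from 492 and 480.1 to 297 and 288 CPM, and 1.67-fold. Chac1, which degrades glutathione, fell 3.86-fold, from 17.9 and 20.5 to 5.2 and 4.75 CPM, Nupr1, a stress-induced chromatin protein, 3.66-fold, from 102 and 106 to 27.5 and 29.1 CPM, and Cth, which makes cysteine, 2.32-fold, from 159 and 145 to 68.3 and 62.7 CPM. All 3 enzymes of the serine pathway and these stress targets were lower in both long libraries. Atf4 itself rose 1.1-fold, from 653 and 624 to 715 and 690.0 CPM, a call lost without replicate 2 of first 2i (edgeR adjusted p = 0.204) or replicate 1 of long 2i (0.174). Amino acid transporters counted 9 up and 6 down of 20 (median 0.15). Slc43a1, a carrier of large neutral amino acids, rose 8.04-fold, from 1.03 and 0.925 to 7.45 and 8.34 CPM, and Slc1a3, a glutamate carrier, fell 8.08-fold, from 6.22 and 6.96 to 1.24 and 0.422 CPM.

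Enzymes that make cholesterol mostly rose, 15 up and 2 down of 24 (median 0.19). Mvd, an enzyme of the mevalonate pathway, rose 1.92-fold, from 59.7 and 64.9 to 115 and 123 CPM. Genes of fatty acid synthesis counted 8 up and 6 down of 18 (median 0.031), with Acaca up 1.57-fold, from 27.9 and 27.7 to 43.7 and 43.8 CPM, and Mid1ip1 down 1.69-fold.

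Of 11 tested genes of the aryl hydrocarbon receptor group 3 rose and 6 fell (median -0.19). Cyp1a1, its standard target, rose 7.44-fold, from 7.16 and 6.23 to 51.5 and 48.4 CPM, and the repressor gene Ahrr 3.51-fold, from 4.91 and 3.65 to 16 and 14.2 CPM. The receptor gene Ahr read 12.5 and 14.5 against 11.5 and 15.8 CPM (edgeR adjusted p = 0.901). Second 2i averaged 0.405 CPM of Cyp1a1 and serum 0 CPM. Nqo1, a quinone reductase, rose 1.55-fold, from 175 and 169 to 262 and 271 CPM, and Tiparp fell 1.49-fold, from 74.1 and 67.6 to 51.1 and 44.4 CPM. Among nucleic acid sensors and interferon-inducible genes 5 rose and 8 fell of 21 (median -0.044). Irf1 fell 2.04-fold, from 49.5 and 47 to 23.3 and 24 CPM, the chromosome 1 genes Aim2 and Sp100 1.43-fold, from 172 and 162 to 125 and 109 CPM, and 2.66-fold, and Zbp1, a sensor of Z-form nucleic acids, 8.57-fold, from 1.5 and 1.46 to 0.118 and 0.211 CPM. Mb21d1 and Tmem173, which encode the DNA sensor cGAS and its partner Sting, rose 2.0-fold, from 2.95 and 3.21 to 5.85 and 6.44 CPM, and 2.42-fold, from 4.63 and 4.58 to 11.8 and 10.5 CPM.

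Y-linked genes split, with 2 up and 3 down of 7 tested. Eif2s3y, a translation factor gene, fell 1.76-fold, from 182 and 162 to 104 and 91.6 CPM, Ddx3y, an RNA helicase gene, 1.5-fold, from 190.1 and 174 to 129 and 114 CPM, and Uty 1.29-fold. Kdm5d, a histone demethylase gene, rose 4.99-fold, from 2.43 and 2.92 to 13.4 and 13.4 CPM, and Usp9y, a deubiquitinase gene, 11.3-fold, from 1.31 and 0.438 to 10.05 and 10.1 CPM. All 4 libraries therefore expressed Y-linked genes. The X-linked noncoding RNA Xist read 0.982 and 0.584 against 1.95 and 1.06 CPM (edgeR adjusted p = 0.0961).

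Markers of other cells were checked for the whole list. The 11 markers of fibroblasts and feeder cells summed to 324.9 and 334.9 CPM in first 2i and 309.8 and 322.5 CPM in long 2i, nearly all from Vim, which stem cells express too, at 314 and 326 against 301 and 314 CPM (edgeR adjusted p = 0.331). Of 7 tested, 1 rose and 1 fell, and Twist2 was at 0 in all 4 libraries. The 9 markers of blood and endothelium summed to 122.4 and 131.1 CPM and then 81.15 and 86.09 CPM, mostly Pecam1, although 3 of the 7 tested rose and 1 fell, with Hba-a1 at 0 in all 4 libraries. Their part in the results was not tested.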

How the data were processed

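RNA-seq libraries of 5 culture groups, 2 each, were used as the authors deposited them: whole-number read counts per gene, from which the last 5 rows of each file, summary categories that name no gene, were set aside. The summary category of alignments that are not unique made up 33.41 to 36.51% of each file's total, that outside genes 10.34 to 11.78% and the ambiguous one 0.687 to 0.73%. Whether a read with several alignments was counted only once there was not given. The submitters' processing notes name HTSeq 0.5.4p5, TopHat2 2.0.4, DESeq2 and CASAVA 1.8.2, and build mm9. What each tool did, the annotation, the layout and the strand setting were not given in the sources used here, so overlapping and antisense genes are uncertain.

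Counts were tested with edgeR 4.0.16 in R 4.3.3: filterByExpr (minimum count 10, minimum total 15), TMM scaling, and a robust quasi-likelihood fit of all 10 libraries by group, so that the groups share 1 estimate of spread over 5 residual degrees of freedom. P-values were adjusted by Benjamini-Hochberg over all 14220 genes tested, with a threshold of 0.05. The script was tested on simulated counts. The 4 libraries compared held 16809070 to 21261219 gene counts. A fold against a group at 0 is a lower bound from a floor of 3 counts over the group, which covers counting error only.

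Libraries were grouped by the labelled medium. The text names the 12 genes of largest change in each direction with a mean of 5 CPM or more in 1 of the groups and no overlap of libraries, leaving out gene model names and ribosomal, histone and mitochondrial genes, up to 4 passed members of each list per direction with at least 1 CPM, a set of pathway genes, and further members chosen for their role after their values were seen. Some members that the lists hold are counted but not reported singly here. Members and lists were chosen with earlier results of these data known. Gene symbols were matched to RefSeq tables of build GRCm38.p6, used for chromosomes, gene order and promoter sequences alone, since it differs from mm9. Alternatives were RLE scaling, no filter, DESeq2 1.42.0, a fit of the 4 libraries alone, the title series as a block, leaving out each library, a test against a fold of 1.5 and, added after seeing the data, leaving out chromosomes 1, 6 and 16.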

Additional observations from a re-analysis of the deposited data

How the results depend on the processing

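The number of genes changed between first and long 2i was 8699, and it ranged from 7609 to 7871 when 1 library was left out. It was 8693 with RLE scaling, 8877 without the filter on low counts, 7657 with DESeq2, 8484 with the 4 libraries alone and 7322 without the genes of chromosomes 1, 6 and 16, an alternative chosen after seeing the data. Against a fold of 1.5 it was 2673, 1064 higher and 1609 lower. With the title series of the samples as a replicate block it was 9569. Called genes that changed sign numbered 0 under each of these settings, apart from the test against a fold, where signs were not compared. Deviations of same-numbered libraries correlated at r = 0.0994 to 0.168 over the pairs of groups and 0.108 between first and long 2i, and the labels do not say that the series marks a shared culture, so the numbers were not taken as pairs. Leaving out 1 library moved the median log2 fold change of chromosome 1 between -0.516 and -0.482, that of chromosome 6 between 0.208 and 0.259 and that of chromosome 16 between 0.252 and 0.292, and the cause was not tested. Of the 328 genes that the rule names, 320 were called. At least 1 alternative took the call from 25 of these (13 only with a library left out), 2 others gained one and 0 reversed. The test against a fold of 1.5 and the fit without chromosomes 1, 6 and 16 are not in these counts. Against a fold of 1.5, 6026 of all 8699 calls were lost. Of the 65 medians of lists and chromosomes, 7 moved by more than the spread between library pairs with the 4 libraries alone and 16 to 22 with 1 library left out, and 17 of 44 list medians did without chromosomes 1, 6 and 16.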
